A study of Arabidopsis thaliana with 6 samples.

Results

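PDF1.2 and PDF1.2b are 2 plant defensins, and each is measured by 1 probe set on the ATH1 array, a short-oligonucleotide array of Arabidopsis genes. The members were chosen by gene: the probe set 249052_at is annotated to PDF1.2 (AT5G44420) and the probe set 257365_x_at to PDF1.2b (AT2G26020), out of 13356 genes with a probe set of their own in the annotation used. They were proposed with their light and CO2 values already known, so their own signals and differences are described here without a test. The suffix of 257365_x_at, shared by 126 probe sets, marks probes that can also bind other transcripts. In the gene table of assembly TAIR10.1, PDF1.2 lies next to PDF1.2c and PDF1.2b next to PDF1.3. Neither of those relatives has a probe set of its own here, and probe sets annotated to several genes were not searched for them. Transcripts of these close copies may add to the signal of 257365_x_at. No probe sequences were at hand, so whether it or 249052_at binds them was not tested. The 2 probe sets are therefore not treated as independent measurements.

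Defensins are small, secreted, cysteine-rich peptides, many of which inhibit fungal growth. PDF1.2 is the standard reporter of the defence branch that needs jasmonate and ethylene together. In that branch, EIN3-type factors of ethylene signalling and jasmonate perception act through the transcription factors ERF1 and ORA59 on the defensin promoters. MYC2 and its relatives drive the other, wound-type jasmonate branch and restrain the defensin branch, and salicylic acid signalling also restrains it.

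Total RNA was taken from rosette centres, leaves up to number 11 included, of Col-0, the usual wild-type line of Arabidopsis thaliana, with no mutation or transgene named. All plants stood in compost under 10 h days at 21 degrees C, received Intercept insecticide and were sampled at growth stages 3.20 to 3.50. Low, medium or high light was combined with ambient or high CO2, and each of the 6 combinations was measured on 1 array, in a study of stomatal number at raised CO2. How bright each light level was, how much CO2 was supplied and how many plants went into each array is not stated in the labels. The array titled high light and high CO2, called the combined array below, carries an atmosphere entry that reads normal air. Its title was followed here. A CO2 difference at high light rests on this array and has no value without it, and fitted differences that move with it are also given without it or with the atmosphere entry.

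No combination was replicated, so the number of arrays limits the precision. An SE comes from an additive model of light and CO2 with 2 residual degrees of freedom. The spread of each probe set is then drawn by limma towards that of others of like intensity. With 1 array for each combination, the spread is the departure from the additive model. It holds any change of the CO2 difference with light as well as noise. All labels carry the same replicate number and nothing says that the plants came from separate plantings. The noise may therefore leave out variation between plantings. Signals are on a linear scale, and the trimmed mean was 100 on every array. Medians lay between 40.7 and 43.2. The 13648 probe sets with a mean signal of at least 26.7 were tested. Of the tissue markers, the Rubisco activase gene RCA, a marker of green leaf cells, had signals between 3608 and 4800.1. FAMA, which acts in guard cell formation, had signals between 56.9 and 82.9, and the meristem gene CLV3 between 1.4 and 8.6. In such whole tissue, fewer cells of a type and less RNA per cell cannot be told apart.

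PDF1.2 had its highest signal where high light and high CO2 were combined. At ambient CO2 its signal was 8.6 in low light, 74.1 in medium light and 33.8 in high light. At high CO2 it was 17.2 in low light, 82 in medium light and 483.9 in high light. The low-light arrays were the lowest at both CO2 levels and lay under the filter cutoff of 26.7, so fold values against them are not firm. The combined array stood 5.90-fold above medium light with high CO2, its nearest neighbour, and 14.3-fold above high light with ambient CO2. The whole range was 56.3-fold, which ranked 5 from the widest among the tested probe sets.

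PDF1.2b gave the same order of arrays. At ambient CO2 its signal was 18 in low light, 147.3 in medium light and 38.1 in high light. At high CO2 it was 26.1, 185.4 and 770 in the same order of light. Again 2 arrays, both in low light, lay under the cutoff. The combined array stood 4.15-fold above medium light with high CO2 and 20.2-fold above high light with ambient CO2, and the range was 42.8-fold.

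**Figure D1:**
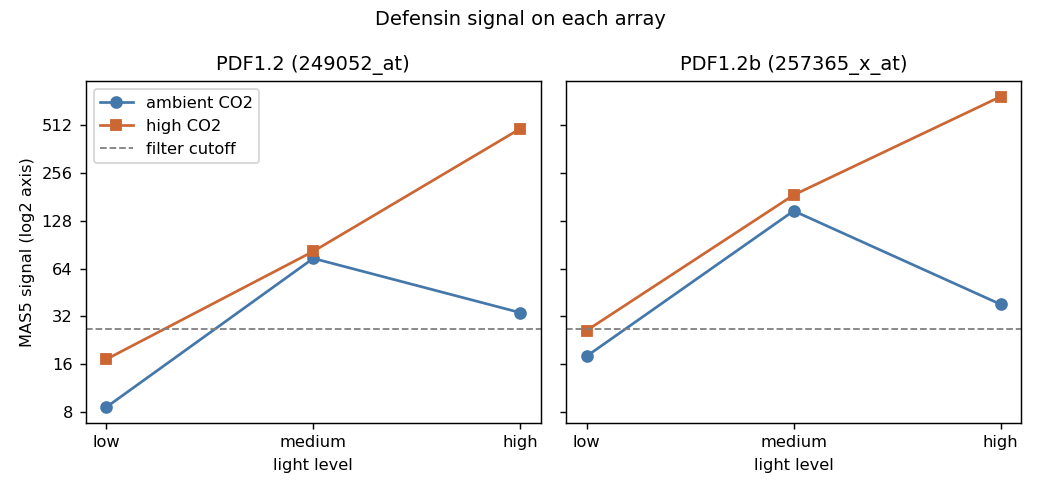
MAS5 signal (log2 axis) of PDF1.2 (left) and PDF1.2b (right) against light level, with 1 point for each array and lines joining arrays of the same CO2 level; the dashed line is the filter cutoff of 26.7. Both lines nearly meet at medium light (74.1 and 82 for PDF1.2) and part at high light (33.8 and 483.9).

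Both probe sets ran from low light at ambient CO2, through low light at high CO2, high light at ambient CO2, medium light at ambient CO2 and medium light at high CO2, up to high light at high CO2. This order was found in 46 of 13648 tested probe sets (0.337%), both members included. With no replicates, the gaps can be set only beside the residual SD of the additive model, which comes from the same 6 values and so is no independent yardstick. It was 1.37 log2 units for PDF1.2. Its step from medium light with high CO2 up to the combined array, 2.56 log2 units, was larger than that, and its other 4 neighbouring gaps, of 0.15 to 1.13, were smaller. For PDF1.2b the residual SD was 1.60. The steps into the combined array (2.05) and from high to medium light at ambient CO2 (1.95) exceeded it, and the gaps of 0.54, 0.55 and 0.33 did not. Across the 6 arrays the log2 signals of the pair had a Pearson r of 0.98, and 0.96 over the 5 arrays without the combined one. This is a description of 2 probe sets on shared arrays that may bind the same transcripts.

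Of the 3 light levels, high light had the largest CO2 difference for both defensins. For PDF1.2 the log2 difference, high minus ambient CO2, was 1.00 at low light, 0.15 at medium light and 3.84 at high light. For PDF1.2b it was 0.54, 0.33 and 4.34. The high-light values ranked 2 and 1 from the highest among the 13648 tested probe sets. A CO2 difference of at least 2-fold upward was found in 0.586% of probe sets at low light, 1.42% at medium light and 0.916% at high light. The combined array lay at least 4-fold above every other array in 2 probe sets (0.0147%), which were these 2 defensins, and at least 2-fold above in 25. These shares describe the pattern for which the genes were picked and support nothing further.

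The light differences of the defensins were unlike at the 2 CO2 levels, which was not tested. From low to medium light, PDF1.2 was higher by 3.11 log2 units at ambient CO2 and by 2.25 at high CO2, and PDF1.2b by 3.03 and 2.83. From medium to high light the sign differed with CO2 as given by the titles, and the value at high CO2 rests on the combined array. At ambient CO2 the log2 difference was -1.13 for PDF1.2 and -1.95 for PDF1.2b, and at high CO2 it was 2.56 and 2.05. A signal lower by at least 1 log2 unit at ambient CO2 and higher by at least 1 at high CO2 was found in 5 tested probe sets. Besides the defensins these were AT3G16530, AT4G04660 and AT2G45630, which were chosen after their values were seen. AT3G16530 went from 95.1 to 39.8 at ambient CO2 and from 93.5 to 258.4 at high CO2, but unlike the defensins it was highest in low light with high CO2, at 316.8.

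The additive fit averages over these differences. Its fitted log2 difference of PDF1.2 was 1.66 ± 0.59 for high minus ambient CO2, 3.39 ± 0.72 for high minus low light, 2.68 ± 0.72 for medium minus low and 0.71 ± 0.72 for high minus medium (± SE). PDF1.2b had 1.73 ± 0.67, 2.98 ± 0.83, 2.93 ± 0.83 and 0.05 ± 0.83. The residual SDs of 1.37 and 1.60 compare with a median of 0.16 over tested probe sets, and 17 probe sets had one at least as large as that of PDF1.2. Because limma draws such a spread towards that of other probe sets, these SEs are smaller than the residual SDs alone would give. Without the combined array the high minus medium value became -0.92 for PDF1.2 and -1.90 for PDF1.2b, and the high minus low value 1.76 and 1.03. The CO2 value was 0.57 and 0.43 without the combined array. It was the same without the array of high light and ambient CO2, and with the atmosphere entry.

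Among the other defensins that passed the filter, PDF2.2 shared part of the profile of PDF1.2 and PDF2.3 stayed nearly level. Of 15 listed family members 12 had a probe set of their own, and 4 passed the filter, PDF1.2 and PDF1.2b among them. The other 2 were PDF2.2 and PDF2.3, defensins of another subfamily that the gene table calls LCR69 and LCR68. From low to high light PDF2.2 had 839.1, 1143 and 2724.3 at ambient CO2, and 1443.7, 2721.3 and 3285.4 at high CO2. Its lowest array was again low light with ambient CO2 and its highest the combined array, but high light with ambient CO2 was among its high arrays. PDF2.2 rose from low to high light by 1.44 ± 0.21 on the log2 scale (limma, adjusted p = 0.00662), where 9% of tested probe sets passed, 4.18% upward and 4.82% downward. It passed under all 14 alternatives run for this comparison, with values from 1.07 to 1.95. Where an alternative leaves 1 array at a light level, the spread comes from the other light levels and that array is assumed to vary like them.

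The CO2 differences of PDF2.2 were 0.78, 1.25 and 0.27 log2 units at low, medium and high light, so its smallest was where those of PDF1.2 and PDF1.2b were largest. The CO2 comparison did not pass for PDF2.2 (0.77 ± 0.17, limma adjusted p = 0.268), where 0.0586% of probe sets did. Without either high-light array it was 1.02. Leaving out the one or the other gives the same value, since CO2 then rests on the low-light and medium-light arrays alone. PDF2.3 stayed between 674.4 and 778 on all arrays, with a log2 difference of 0.05 ± 0.12 for high minus low light and -0.05 ± 0.10 for CO2, and passed in neither.

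The remaining 8 family members lay below the filter and were not tested. For 7 of them (PDF1.1, PDF2.1, PDF2.4, PDF2.5, PDF2.6, PDF3.1 and PDF3.2) signals lay between 0.4 and 11.6. PDF1.4, of the same subfamily as PDF1.2 by name, had 26.6, 19.7 and 13.7 from low to high light at ambient CO2 and 27.8, 17 and 12.3 at high CO2. Its signals were lower with more light in both atmospheres, and across arrays its log2 signal had r = -0.80 with PDF1.2.

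**Figure D2:**
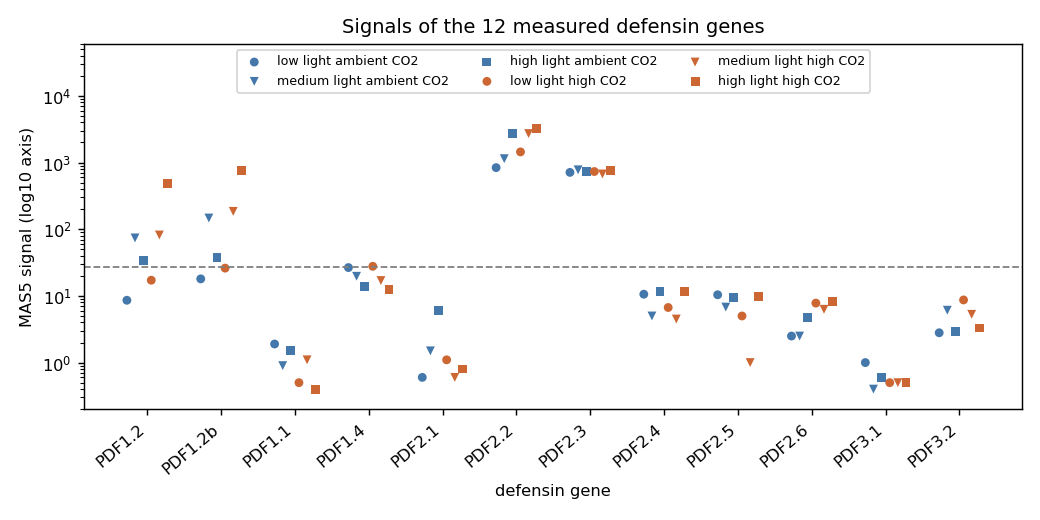
MAS5 signal (log10 axis) of the 12 measured defensin genes, with 1 point per array; colour gives the CO2 level, marker shape the light level, and the dashed line the cutoff of 26.7. Levels of different probe sets are not comparable with each other, so each gene is read on its own: PDF1.2 and PDF1.2b spread widest (56.3-fold and 42.8-fold) among the 4 genes that passed the filter, and PDF2.3 stays within 674.4 to 778.

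Little of the upstream pathway could be read. The 7 lists on jasmonate and ethylene synthesis, perception and output held 107 genes. Of these, 10 had a probe set of their own under the annotation used here and 5 passed the filter. By limma 0 of the 5 passed for CO2, for any of the 3 light comparisons or for the CO2 difference along the light order. Over all probe sets 0.0586% passed for CO2, 9% for high minus low, 4.54% for medium minus low, 0.953% for high minus medium light and 0% along the light order. An unadjusted p under 0.05 was reached by 0 of the 5 for CO2, 1 for high minus low, 1 for medium minus low, 3 for high minus medium and 0 along the light order. Over all tested probe sets that share was 8.63%, 25.1%, 22.1%, 16.8% and 1.66%. The median log2 difference of the 5 was -0.0016 for CO2, 0.20 for high against low light, -0.32 for medium against low and 0.31 for high against medium. Over all tested probe sets the medians were 0.0060, 0.03, 0.02 and -0.02. The ERF1, ORA59, MYC2, JAZ, COI1 and ACS genes were not analysed here.

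Among jasmonate genes, OPCL1, a CoA ligase of jasmonate synthesis, had 205.4, 128.9 and 326.5 from low to high light at ambient CO2 and 161.2, 164.9 and 213.2 at high CO2. It was highest in high light with ambient CO2, the array that ranked 3 from the lowest for both defensins. Its high minus low difference was 0.54 ± 0.23 (limma, adjusted p = 0.188). Without the combined array it was 0.84, with 1 array for high light, that at ambient CO2.

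MYC3, a relative of MYC2, had 63.1, 77.4 and 66.8 at ambient CO2 and 67.3, 89.2 and 115.7 at high CO2. Its highest array was the combined one, and its log2 signal had r = 0.96 with PDF1.2 over the 6 arrays and 0.88 over the 5 without the combined one. Its CO2 difference was 0.09, 0.20 and 0.79 log2 units at low, medium and high light. It passed neither for CO2 (0.36 ± 0.17, limma adjusted p = 0.615) nor for high minus low light (0.43 ± 0.21, adjusted p = 0.255). MYC4, another relative, had 41.6, 39.9 and 24.9 at ambient CO2 and 30.8, 24.7 and 38.7 at high CO2, with r = 0.04.

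In ethylene signalling, EIN3, the transcription factor through which the pathway acts on its targets, lay between 209.7 and 272.9 on all arrays. Its high-light signals were 268.5 in ambient and 271.3 at high CO2, a log2 difference of 0.01. RTE1, which acts with the ethylene receptor ETR1, had 81.7 and 80.6 in high light, and between 54.9 and 71.6 on the other arrays. Its high minus medium difference was 0.53 ± 0.17 (limma, adjusted p = 0.186). Neither gene passed in any comparison.

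The 5 measured pathway genes below the filter had signals between 0.9 and 26.9. OSM34, an osmotin-type antifungal protein, had 1.8, 1.8 and 2.4 at ambient CO2 and 6.6, 10.1 and 12.2 at high CO2, so every high-CO2 signal lay above every ambient one, all under the cutoff. THI2.1, a jasmonate-responsive thionin, had 25.1, 24.3 and 26.9 at ambient CO2 and 18.2, 25.4 and 18.1 at high CO2. DGL, a lipase of jasmonate synthesis, JMT, which methylates jasmonate, and ERF96 were the others. DGL lay between 1 and 17.7, JMT between 2.1 and 10.7 and ERF96 between 0.9 and 3.2.

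**Figure D3:**
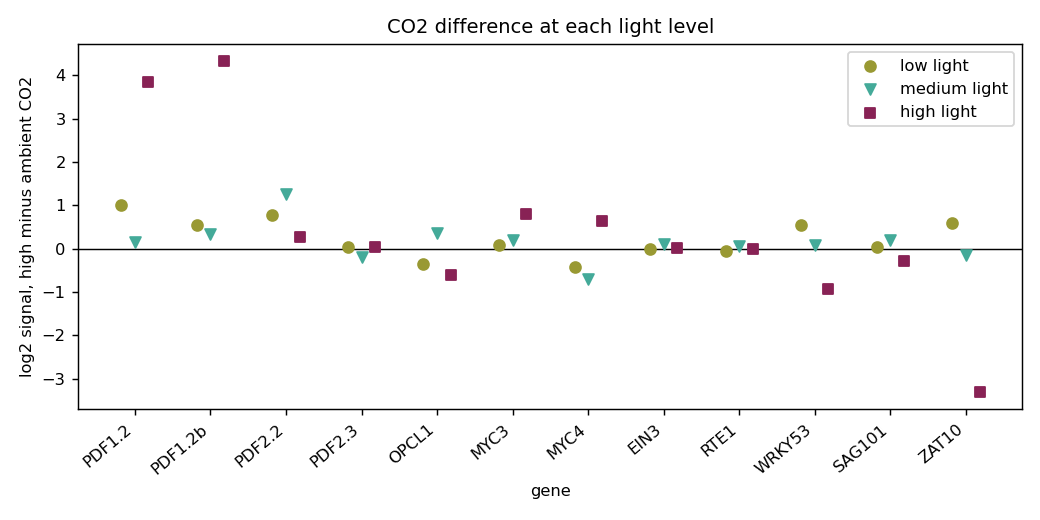
Log2 signal, high minus ambient CO2, at low, medium and high light (1 point each) for the 2 defensins, the tested family members PDF2.2 and PDF2.3, the 5 tested pathway genes and 3 salicylic acid or stress genes. The high-light points of PDF1.2 (3.84) and PDF1.2b (4.34) lie above all others, and that of ZAT10 (-3.32) lies lowest.

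Of the 4 measured genes of the salicylic acid and oxidative stress lists, ZAT10, WRKY53 and SAG101 were highest on the other high-light array. ZAT10, a zinc-finger factor induced by excess light and oxidative stress, had 60.5, 58.6 and 764.3 from low to high light at ambient CO2 and 90.9, 53 and 76.6 at high CO2. WRKY53, a transcription factor of senescence and salicylic acid responses, had 23.9, 23.6 and 88.9 at ambient CO2 and 34.8, 24.8 and 46.4 at high CO2. On that array PDF1.2 was at 33.8. Neither passed with all arrays (high minus low ZAT10 1.71 ± 0.76, limma adjusted p = 0.214, and WRKY53 1.16 ± 0.35, adjusted p = 0.0874). Without the combined array the values were 3.48 and 1.78, again with 1 array for high light, that at ambient CO2.

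For the change of the CO2 difference along the light order, ZAT10 had -1.95 ± 0.67 log2 units per light step (limma, adjusted p = 1.00). It passed without the low-light ambient-CO2 array (-3.83, adjusted p = 0.0361). PDF1.2 had 1.42 ± 0.72 and PDF1.2b 1.90 ± 0.83. By limma 0 of 13648 probe sets passed in that comparison, with 226 at an unadjusted p under 0.05. SAG101, a partner of the immune regulator EDS1, had 25, 23.3 and 38.9 at ambient CO2 and 25.6, 26.6 and 31.8 at high CO2. GRX480, a glutaredoxin that binds TGA factors and restrains PDF1.2 when overexpressed, lay below the filter, with 19, 11.3 and 12.6 at ambient CO2 and 20.3, 28.6 and 29.4 at high CO2.

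**Figure D4:**
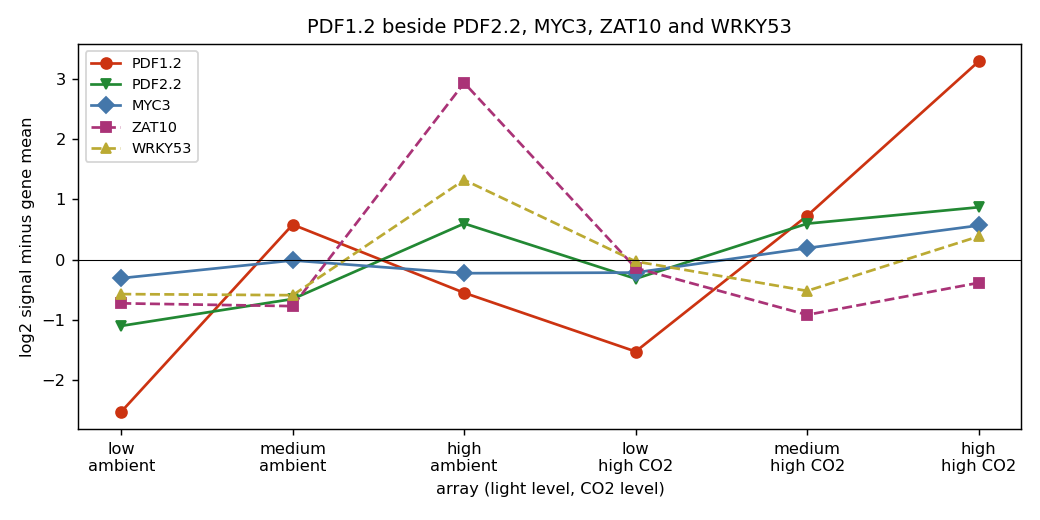
Log2 signal minus the gene's mean over the 6 arrays, for PDF1.2, PDF2.2, MYC3, ZAT10 and WRKY53, with arrays ordered by CO2 and then light. PDF1.2 peaks on the last array (signal 483.9) and ZAT10 on the third (764.3).

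Genes most like PDF1.2 were taken by Pearson r of log2 signal over the 6 arrays, among 1420 tested probe sets with 1 gene, a range of at least 2-fold and no defensin. The 10 highest were NRPE7, a subunit of plant-specific RNA polymerase V (r = 0.99), AT2G43590, AT3G49320, AT1G11480, AT5G63680, AT4G19150, AT1G17090, AT1G53645, AT2G43850 and AT5G16420 (r = 0.92). All 10 had their highest signal in high light with high CO2, 8 had their lowest in low light with ambient CO2, and 2 had the same order of arrays as PDF1.2. Their ranges were far narrower than the 56.3-fold of PDF1.2. AT2G43590 had the widest, 5.93-fold, and the narrowest was 2.01-fold.

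AT2G43590 had 43, 89.7 and 77.8 from low to high light at ambient CO2 and 46.1, 99.6 and 255.2 at high CO2. Its likeness to PDF1.2 is what it was picked for. NRPE7 had 30.9, 49.8 and 38.9 at ambient CO2 and 38.2, 49.3 and 72.1 at high CO2. The 5 most opposite genes were AT4G31080 (r = -0.98), AT4G04120, AT1G61667, AT1G35610 and AT3G05640 (r = -0.95), all lowest on the combined array. AT4G31080 had 142.9, 103.7 and 112.9 at ambient CO2 and 123.1, 89 and 69.4 at high CO2. Of the 2743 tested probe sets with a range of at least 2-fold, 33 besides PDF1.2 itself had r of at least 0.9 and 48 had r of -0.9 or lower. PDF1.2b ranked 4 among them by r. Of the 10 genes, 0 stayed among the 10 when the combined array was left out. The 2-fold range was then asked of the arrays kept, and of the 10 genes only AT2G43590 (43 to 99.6) met it. The others, such as NRPE7 (30.9 to 49.8), fell short and so left whatever their r. Over the arrays kept the r of the 10 genes with PDF1.2 lay between 0.78 and 0.97.

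**Figure D5:**
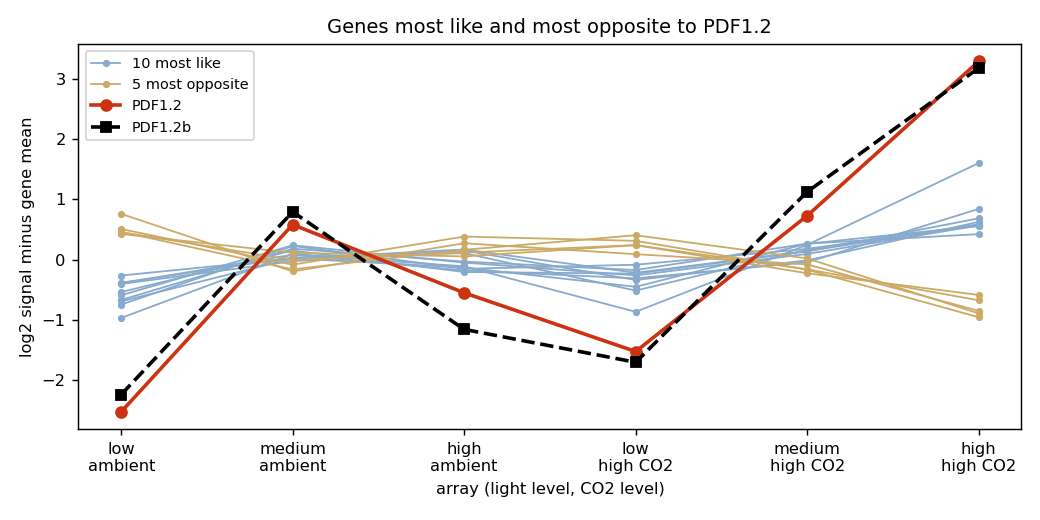
Log2 signal minus the gene's mean for PDF1.2, PDF1.2b, the 10 genes with the highest and the 5 with the lowest r with PDF1.2, over the 6 arrays. All 10 genes peak on the last array, 2 of them have the same order of arrays as PDF1.2, and AT2G43590 (5.93-fold range) is the widest.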

How the data were processed

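The deposited table holds 1 signal intensity per probe set and array, linear and, per the submitters' processing notes, from MAS5, with no version named. The authors' intensity values were already scaled, since the 2% trimmed mean is 100 in every deposited column. Detection calls were not used here. Signals under 0.1 were raised to 0.1 before log2. After removal of 64 control probe sets, the brightest 60% of 22746 by mean log2 signal were tested (13648). CO2 and a light factor were fitted together, without their product, over the 6 arrays by limma 3.58.1 in R 4.3.3 (lmFit, then eBayes with a trend on intensity, mean prior degrees of freedom 5.76). Another fit held CO2, a light score of 1, 2 and 3, and their product. Benjamini-Hochberg adjustment ran over all tested probe sets, at a threshold of 0.05. The additive fit was tested on simulated data with added CO2 and high-light changes. Those data held no change of the CO2 difference with light, and the fit with the product was not checked on them. Figures were drawn in Python 3.11.15.

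The annotation gave 13513 probe sets 1 gene, 503 several and 8730 none, and 13436 of the first matched the gene table. The 19 gene lists held 191 genes, of which 33 were measured and 18 tested, with 3 left out for a symbol that names another locus. Members and lists were chosen with earlier results of these data known. The text names both members, every measured family member, up to 4 genes of each other list by smallest p, and the genes most like PDF1.2. Alternatives were other scalings, filters, a pseudocount, other variance priors, the atmosphere entry and leaving out each array.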

Additional observations from a re-analysis of the deposited data

Results flagged for a closer look

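From medium to high light the defensin signals moved in opposite directions on the arrays titled ambient and high CO2. The log2 difference of PDF1.2 was -1.13 at ambient CO2 and 2.56 at high CO2, and that of PDF1.2b was -1.95 and 2.05. The values at high CO2 rest on the combined array, which is titled high CO2 but has an atmosphere entry of normal air. With 1 array for each combination the difference was not tested.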

How the results depend on the processing

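No paired analysis was possible because every label carries the same replicate number, so a replicate block has nothing to pair. The additive fit does compare the CO2 levels within each light level. With each array left out in turn, the log2 difference of PDF1.2 ranged from 0.57 to 2.42 for CO2, 1.76 to 5.03 for high minus low light, 1.54 to 3.82 for medium minus low, -0.92 to 2.35 for high minus medium and -0.70 to 3.54 along the light order. PDF1.2b ranged from 0.43 to 2.44, 1.03 to 4.93, 1.88 to 3.98, -1.90 to 2.00 and -0.59 to 4.39. The negative ends came without the combined array (high minus medium) or the ambient one in high light (light order). With the atmosphere entry PDF1.2 was 0.57 for CO2 and 0.41 along the light order, and PDF1.2b 0.43 for CO2. With the 25th percentile added before log2, PDF1.2 was 2.59 for high minus low and 1.84 for medium minus low. PDF1.2 lay outside the brightest 40%. Pathway genes past the threshold numbered 0 to 1 for high minus low and for high minus medium when 1 array was left out, the 1 being OPCL1, without the combined array in both and also without the medium-light high-CO2 array in the second. Of the 10 genes most like PDF1.2, 3 stayed with the added percentile and 0 to 7 with 1 array left out. The 2-fold range was asked anew each time, so a gene can leave by its range as well as by its r.

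Counts over all probe sets moved too, and the cause was not tested. For CO2 the 8 became 5 with quantile normalization or the brightest 40%, and 0 without the filter, without the trend or with the atmosphere entry. For high minus low the 1228 became 737 without the filter and 726 without the trend. For medium minus low the 619 became 119, 17 and, with the atmosphere entry, 368. For high minus medium the 130 became 9, 1 and 232. With 1 array left out the counts ranged from 8 to 144, 301 to 1636, 14 to 1630, 4 to 852 and, along the light order, 0 to 30.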
